A study of Homo sapiens with 32 samples.

Results

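The ZFP, ZSCAN and ZKSCAN genes are human zinc finger genes that carry a family symbol other than ZNF, and they were examined here for H3K9me3, the trimethylated histone H3 lysine 9 of heterochromatin. Members were chosen by symbol: protein-coding RefSeq genes on chromosomes 1 to 22 whose name is ZFP, ZSCAN or ZKSCAN followed by a digit. This gave 48 genes of 19126, namely 20 ZFP, 21 ZSCAN and 7 ZKSCAN genes. The choice was made when it was known that zinc finger genes carried many peaks in these lists, so every count of peaks in the members is a description and has no test.

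The series comprised 32 ChIP-seq libraries in 16 groups of 2 from the established human colon adenocarcinoma lines LOVO and RKO. By the labels, 8 of them, 4 for each line, were precipitated with a rabbit polyclonal antibody against H3K9me3 from cells given a control short hairpin RNA (shControl) or one against METTL3 (shMETTL3), which encodes an RNA N6-adenosine methyltransferase. The other libraries were METTL3 ChIP from shControl and OLA cells and inputs, and were not used here. Each line is represented here by 1 list of H3K9me3 peaks, which gives positions in hg38 but no height, library, replicate or hairpin. The contrast that could be made was therefore LOVO against RKO, the effect of METTL3 was not analysed here, and the spread between cultures is unknown. On chromosomes 1 to 22 there were 14804 peaks in LOVO, covering 39.6 Mb, and 21931 in RKO, covering 69.8 Mb, and the read depth behind them is unknown.

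Most proteins of these families bind DNA through arrays of C2H2 zinc fingers. The SCAN domain of the ZSCAN and ZKSCAN proteins mediates their pairing with other SCAN proteins. A KRAB domain is found in ZKSCAN proteins and many ZFP proteins. KRAB domains can recruit TRIM28 and with it the H3K9 methyltransferase SETDB1, though not all of them do, and this was not examined for the members. In C2H2 genes the finger array is usually encoded by the last exon, at the 3′ end of the gene, and such 3′ ends are known sites of H3K9me3. ZFP36, ZFP36L1 and ZFP36L2 share the symbol but not this architecture: they encode CCCH proteins that bind AU-rich elements of messenger RNA and promote its decay.

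A gene was counted as marked where a peak covered at least 1 bp of its body, the span from one annotated end to the other. LOVO peaks marked 19 of the 48 members (39.6%), against 15.5% of all protein-coding genes. RKO peaks marked 13 (27.1%), against 20.5% of all. Longer genes are met by more peaks, so the members were also set against the other protein-coding genes of the same length, in 20 length bins. From length alone 4.14 marked members would be expected in LOVO and 6.07 in RKO, so the observed numbers were 4.58 and 2.14 times as high. LOVO therefore had fewer marked genes than RKO over the whole genome and more among the members.

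Both lines marked 9 members (18.8%), against 10.6% of all protein-coding genes. A peak was present in LOVO only for 10 members (20.8%, against 4.94% of all) and in RKO only for 4 (8.33%, against 9.88% of all). The other 25 members had no peak in either list. Over the summed bodies of the members, the covered length was 129.8 kb for LOVO (9.56% of the bases) and 92.7 kb for RKO (6.83%), while over all protein-coding genes they covered 1.23% and 2.25%.

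**Figure D1:**
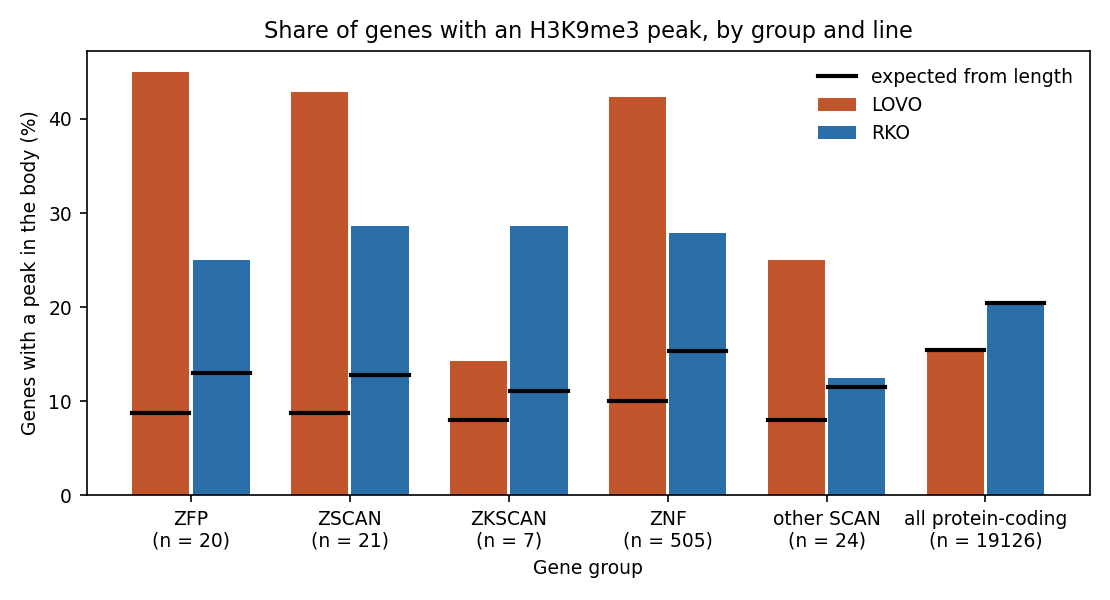
Percent of genes with an H3K9me3 peak in the body in LOVO (orange) and RKO (blue), by gene group, with the percent expected from gene length as black lines (from non-member genes, and for ZNF from genes outside both groups). ZFP and ZSCAN bars stand above the lines in both lines of cells, and the ZKSCAN bars rest on 1 and 2 of 7 genes. The marked genes of the other SCAN group are also counted in the ZNF group.

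The families did not share a single pattern. Of the 20 ZFP genes, 9 were marked in LOVO (1.74 expected from length) and 5 in RKO (2.60 expected), and every ZFP gene marked in RKO was also marked in LOVO. Of the 21 ZSCAN genes, 9 were marked in LOVO (1.84 expected) and 6 in RKO (2.70 expected), 4 of them in both lines. Of the 7 ZKSCAN genes, 1 was marked in LOVO (0.563 expected) and 2 in RKO (0.778 expected), with none in both. With 7 genes, the ZKSCAN shares change by 14.3 percentage points with each gene. The 3 CCCH genes had no peak, and their bodies are short (2.56 to 8.59 kb), so that 0.0388 marked genes would be expected in LOVO and 0.0786 in RKO.

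ZFP bodies had more covered bases in LOVO than in RKO, and ZSCAN bodies had fewer. Peaks covered 79.1 kb of the ZFP bodies in LOVO and 25.7 kb in RKO, 14.1% and 4.58% of their bases. In the ZSCAN bodies they covered 47.5 kb and 61.1 kb (7.52% and 9.69%), and in the ZKSCAN bodies 3.22 and 5.80 kb. Over all protein-coding genes RKO also had the larger covered share (2.25% against 1.23%), by a wider ratio than in the ZSCAN genes, of which more were marked in LOVO. The difference between families rests in part on 2 long stretches, ZFP90 in LOVO and ZSCAN25 in RKO, described next.

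ZFP90, a KRAB zinc finger gene on chromosome 16 from 68533479 to 68576506, had the largest covered share of any member. Its body carried 6 LOVO peaks over 25.5 kb, 59.2% of its length, the widest of them 10.8 kb. In RKO a single peak from 68531452 to 68534480 reached 1.002 kb into the 5′ end of the annotated span and met none of the LOVO peaks. The other lead case in LOVO was ZFP69B on chromosome 1 from 40450064 to 40463715, with 2 peaks over 8.01 kb, 58.7% of the body, and none in RKO. Its neighbour and paralogue ZFP69, from 40477290 to 40496343, had a LOVO peak of 4.45 kb (23.3%) and no RKO peak in the body, although an RKO peak lay 360 bp away. Among members without an RKO peak this was the nearest miss. ZFP69 and ZFP69B are alike in sequence, and how reads that match both were placed is unknown.

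Further ZFP genes marked in LOVO only were ZFP37 on chromosome 9, with 6.62 kb in 2 peaks (36.1% of the body), and ZFP3 on chromosome 17, with 5.22 kb in 1 peak (29.1%). An RKO peak lay 1.93 kb from ZFP37, while the nearest to ZFP3 was 214836 bp away. ZFP37 is in a stretch of chromosome 9 that was rich in RKO peaks (85 to 115 Mb), so its body lacked a peak where RKO peaks were frequent.

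In 4 other ZFP genes both lines had peaks, but not always in the same place. ZFP1 on chromosome 16 from 75119002 to 75172234 was marked to a like extent, at 11.99 kb (22.5%) in LOVO against 10.7 kb (20.2%) in RKO, and 6.52 kb of this was common to both. ZFP2 on chromosome 5 had 6.49 kb in 3 LOVO peaks and 3.597 kb in 1 RKO peak, of which 2.001 kb was common. ZFP62, also on chromosome 5, was covered by a LOVO peak of 8.29 kb (24.1%) and an RKO peak of 3.76 kb (10.9%) with no base in common: the LOVO peak lay 5.16 kb from the 5′ end and the RKO peak 0.839 kb from the 3′ end. ZFP64 on chromosome 20, a C2H2 activator of KMT2A (MLL) in leukaemia, was the ZFP gene with more of the mark in RKO (6.64 kb against 2.58 kb), and the RKO list covered all of its LOVO peak.

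**Figure D2:**
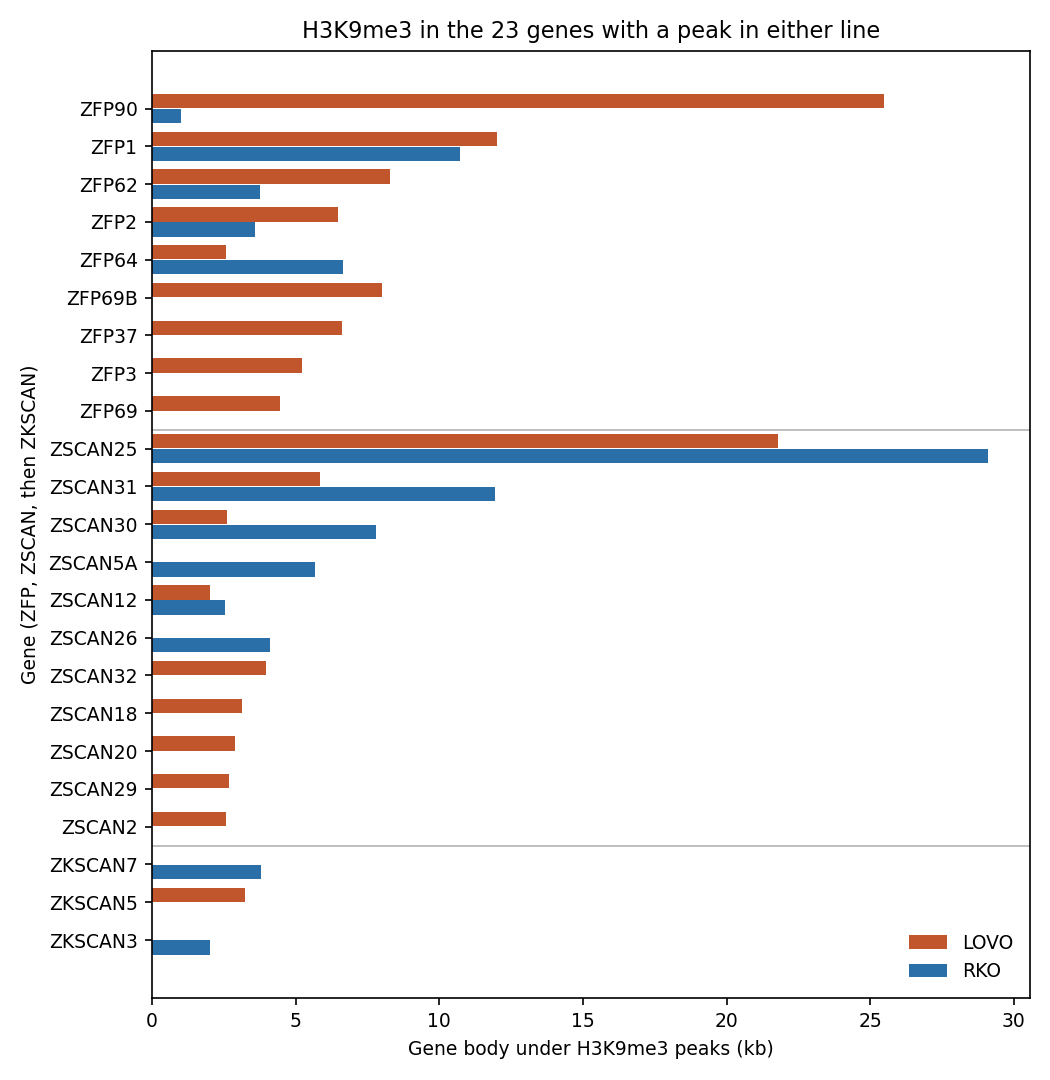
Kilobases of the gene body under H3K9me3 peaks in LOVO (orange) and RKO (blue) for the 23 members with a peak in either line, grouped as ZFP, ZSCAN and ZKSCAN. ZFP90 reaches 25.5 kb in LOVO against 1.002 kb in RKO, and ZSCAN25 is the longest bar of RKO at 29.1 kb.

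ZSCAN25 had the most bases of any member, but its annotated body of 121.1 kb on chromosome 7 (99616946 to 99738035) runs over neighbouring CYP3A genes of drug metabolism. LOVO had 6 peaks in it (21.8 kb, 17.98%) and RKO 8 (29.1 kb, 24.03%), with 8.85 kb in common. All 6 LOVO peaks and 7 of the 8 RKO peaks also lay in CYP3A5, CYP3A7 or the CYP3A7-CYP3A51P readthrough gene, so they cannot be assigned to ZSCAN25 alone. This gene supplied 16.8% of the members' covered length in LOVO and 31.4% in RKO, and without it 108.1 and 63.6 kb remained. It also lies in stretches of chromosome 7 that were rich in peaks in both lists.

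The other ZSCAN genes marked in both lines had more bases in RKO. ZSCAN31 on chromosome 6 had 5.85 kb in 2 LOVO peaks (18.5% of the body) and 11.9 kb in 3 RKO peaks (37.8%), the highest covered share in RKO, and 4.65 kb was common. ZSCAN30 on chromosome 18 had 2.605 kb in LOVO and 7.80 kb in RKO with none in common. ZSCAN12 on chromosome 6 had 2.001 and 2.55 kb, with 0.577 kb in common. These differences come from single lists and cannot be set against a replicate spread.

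In LOVO only, 5 ZSCAN genes on 4 chromosomes were marked, each by 1 peak. They were ZSCAN32 on chromosome 16 (3.98 kb, 21.04% of the body), ZSCAN29 and ZSCAN2 on chromosome 15 (2.68 kb, 20.8%, and 2.57 kb, 11.3%), ZSCAN20 on chromosome 1 (2.89 kb, 9.95%) and ZSCAN18 on chromosome 19 (3.13 kb, 9.06%). In RKO only, ZSCAN26 on chromosome 6 had 4.114 kb (37.2%) and ZSCAN5A on chromosome 19 had 5.66 kb in 2 peaks, 3.85% of an annotated body of 146.98 kb. ZSCAN5A has the close relatives ZSCAN5B and ZSCAN5C, neither of them marked, and how reads matching several of these genes were placed is unknown. The share of ZSCAN26 is large because its body is short, 11.06 kb.

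Each marked ZKSCAN gene had a single peak. ZKSCAN5 on chromosome 7 had 3.22 kb in LOVO (10.7% of the body). ZKSCAN7 on chromosome 3 had 3.80 kb in RKO (13.4%), and ZKSCAN3, a repressor of autophagy genes on chromosome 6, had 2.001 kb in RKO (10.4%). The peak of ZKSCAN3 is also counted for ZSCAN31, whose body overlaps it, so 26 distinct RKO peaks gave 27 pairs of a gene and a peak. The antisense RNA gene ZKSCAN7-AS1 also overlaps the ZKSCAN7 peak, and a peak has no strand.

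Peaks over the members were wider than the usual peak of each list. Their median width was 3045 bp for 36 LOVO peaks, against 2001 bp for all LOVO peaks, and 3582 bp for 26 RKO peaks, against 2587 bp for all. A width of exactly 2001 bp, the commonest in both lists, was found for 7 LOVO and 4 RKO peaks over members, 19.4% and 15.4%, where it made up 54.6% and 38.0% of the full lists. A wide peak is also more likely to touch a gene. Of the peaks over members, 11 of 36 in LOVO (30.6%) and 12 of 26 in RKO (46.2%) met a peak of the other list, where 35.5% and 23.8% of all peaks did. In the 9 members marked in both lines the common bases came to 25.2 kb, which is 28.9% of their LOVO and 32.7% of their RKO bases. Of the 9, 3 (ZFP62, ZFP90 and ZSCAN30) had no common base. The matching values over all protein-coding genes marked in both lines were not computed.

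The position of the peaks along the gene differed between the lists. A strand was at hand for 39 members, those with a start window in the RefSeq table used. Of the 18 such members marked in LOVO, 13 had most of their covered bases in the 3′ part when the body was cut into 3 equal parts, 3 in the middle part and 2 in the 5′ part. Of the 11 marked in RKO, 3 had most in the 3′ part, 2 in the middle and 6 in the 5′ part. By bases, the 3′ part held 50.8% in LOVO and 32.8% in RKO, and the 5′ part 18.2% and 40.7%. Without ZSCAN25, the 3′ part held 54.7% and 26.4%, and the 5′ part 18.6% and 58.2%.

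ZNF genes had the 3′ lean of LOVO as well, with 49.1% of covered bases in the 3′ part in LOVO and 34.3% in RKO over 428 genes. Protein-coding genes outside both groups and of the members' length range had 27.5% and 26.1% there, and 34.3% and 37.3% in the 5′ part. The members' 40.7% in the 5′ part in RKO was near that background only with ZSCAN25 included. Without ZSCAN25 it was 58.2%, and this difference was not tested. In the gene-by-gene map of peak positions, ZFP3, ZFP69, ZKSCAN5, ZSCAN2, ZSCAN12, ZSCAN20, ZSCAN29, ZSCAN32 and ZFP64 had all of their LOVO bases in the 3′ part. The LOVO peak ended 0.42 kb before the 3′ end of ZFP3, 0.856 kb before that of ZFP69 and 1.21 kb before that of ZSCAN29. ZSCAN5A, ZSCAN30, ZKSCAN3 and ZKSCAN7 had all of their RKO bases in the 5′ part, as did ZFP90, while ZFP62 and ZSCAN12 had all of theirs in the 3′ part. The table gives no exons, so whether a peak covers the finger array was not measured.

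**Figure D3:**
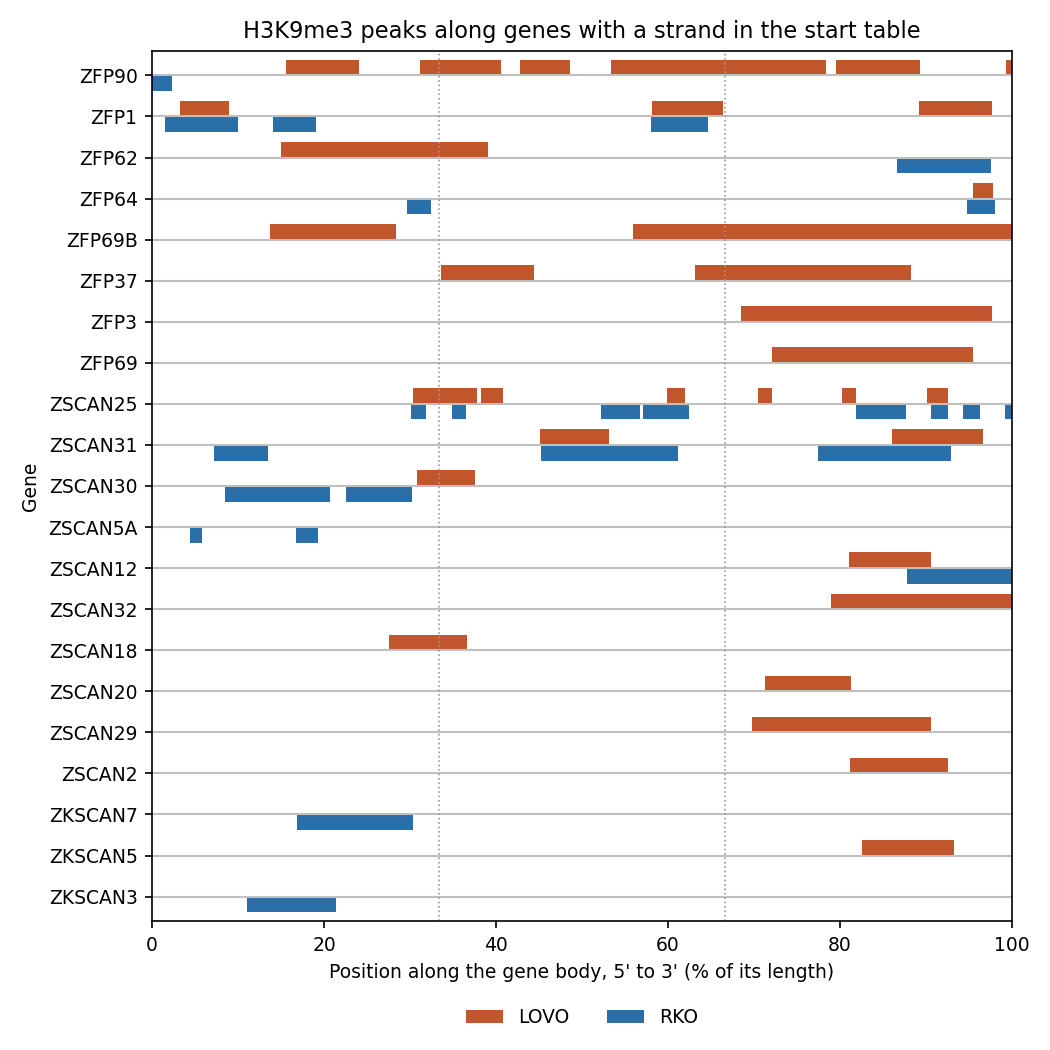
Each line is the body of a marked member with a known strand, drawn from its 5′ to its 3′ end as percent of its length, with LOVO peaks (orange, above) and RKO peaks (blue, below) to scale and dotted lines between the 3 equal parts. LOVO peaks gather at the right, where 13 of 18 genes have most of their covered bases, and RKO peaks do so in 3 of 11.

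With the body cut into 10 equal segments from the 5′ end, the mean share under LOVO peaks over the 39 members was 1.46% in segment 1, 25.8% in segment 9 and 15.4% in segment 10. In RKO it was 4.25%, 5.49% and 7.38% in the same segments. For ZNF genes the LOVO values were 3.47%, 16.9% and 14.7%. Protein-coding genes outside both groups and of the members' length range stayed at or below 0.895% in every LOVO segment. The members' LOVO profile was uneven, with 12.01% in segment 4 and 4.04% in segment 6. By family, segment 9 held 32.3% in ZFP genes, 24.8% in ZSCAN genes and 12.4% in ZKSCAN genes, over 15, 18 and 6 genes.

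**Figure D4:**
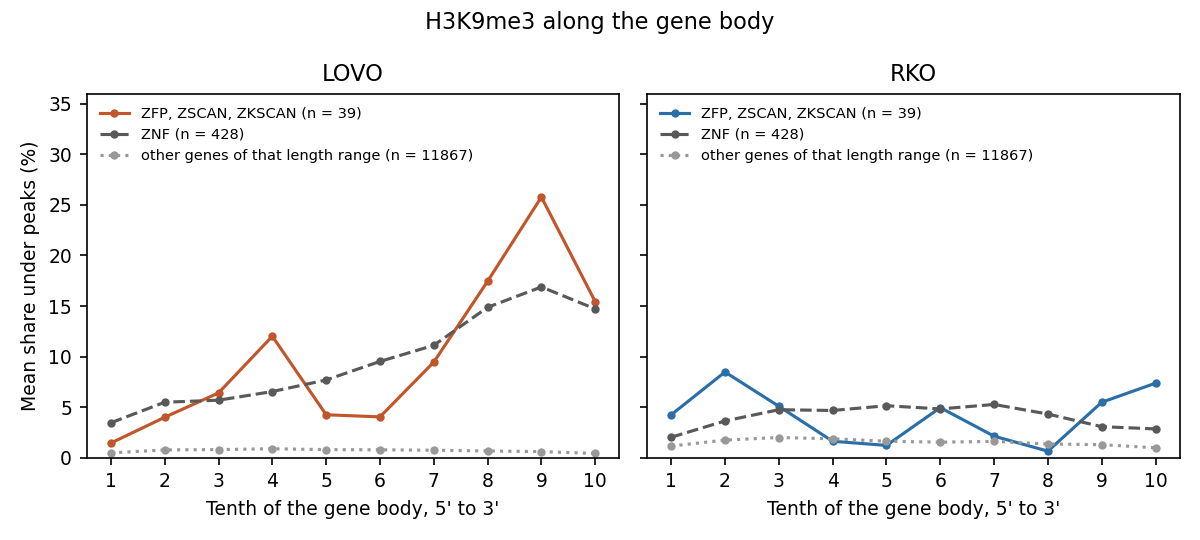
Mean percent of each of 10 equal segments of the gene body under H3K9me3 peaks, 5′ to 3′, in LOVO (left) and RKO (right), for the members (coloured), ZNF genes (dashed) and other protein-coding genes of the members' length range (dotted). In LOVO the members reach 25.8% in segment 9, and in RKO no segment of the members exceeds 8.48%.

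None of the start windows at hand lay under a peak. The table holds 58 windows for 39 members, each from 250 bases before to 50 bases after an annotated start, and none met a LOVO or an RKO peak, although 18 and 11 of these genes were marked in the body. Among all protein-coding genes with a window, 0.616% had one under a LOVO peak and 1.04% under an RKO peak, so a count of 0 among 39 genes is near the background. Even among marked genes the shares were only 3.42% and 4.47%. The 5′ end of the annotated ZFP90 span is not in a window, and it lay under the RKO peak described above. The closest approach of a peak to a window was in ZFP69, where an RKO peak lay 0.11 kb from the window. In LOVO the closest were ZSCAN12 (0.497 kb), ZFP1 (0.838 kb) and ZFP90 (0.853 kb).

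The 250 bases before the start are shown for 4 members whose bodies were marked while the window was free of peaks. For ZFP90 the window lies inside the annotated span, downstream of the RKO peak at its 5′ end. Among members with a window, ZFP90 and ZSCAN32 had the highest covered share of their families in LOVO, and ZSCAN31 and ZKSCAN7 in RKO. The sequences are RefSeq GRCh38.p14, written 5′ to 3′ on the strand of the gene. ZFP90 is at chr16:68539041-68539290 on the plus strand, ZSCAN32 at chr16:3401005-3401254 on the minus strand, ZSCAN31 at chr6:28356272-28356521 on the minus strand and ZKSCAN7 at chr3:44554943-44555192 on the plus strand. Capitals mark GGGCGG or its reverse complement CCGCCC (the GC box) and CCAAT or ATTGG (the CCAAT box).
ZFP90: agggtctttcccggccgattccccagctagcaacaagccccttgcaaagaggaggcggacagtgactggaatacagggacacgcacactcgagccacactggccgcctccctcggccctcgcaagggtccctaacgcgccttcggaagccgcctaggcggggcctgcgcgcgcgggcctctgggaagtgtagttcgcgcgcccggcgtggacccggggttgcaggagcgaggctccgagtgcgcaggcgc
ZSCAN32: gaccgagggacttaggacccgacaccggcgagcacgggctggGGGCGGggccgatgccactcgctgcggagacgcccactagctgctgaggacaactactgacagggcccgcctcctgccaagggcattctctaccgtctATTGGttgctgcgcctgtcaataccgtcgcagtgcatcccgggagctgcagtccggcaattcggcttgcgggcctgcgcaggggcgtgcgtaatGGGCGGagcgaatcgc
ZSCAN31: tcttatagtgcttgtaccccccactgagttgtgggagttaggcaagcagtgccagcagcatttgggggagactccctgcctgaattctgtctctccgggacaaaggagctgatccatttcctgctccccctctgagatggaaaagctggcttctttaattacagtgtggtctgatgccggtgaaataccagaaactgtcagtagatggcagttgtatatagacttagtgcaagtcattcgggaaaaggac
ZKSCAN7: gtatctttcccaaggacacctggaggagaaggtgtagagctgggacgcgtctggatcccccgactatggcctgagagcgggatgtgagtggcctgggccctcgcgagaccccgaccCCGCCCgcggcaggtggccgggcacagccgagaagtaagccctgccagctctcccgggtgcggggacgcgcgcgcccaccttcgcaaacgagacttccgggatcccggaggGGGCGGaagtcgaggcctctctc

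These windows differ in base composition. ZFP90 has 27 CG dinucleotides, ZSCAN32 has 25 and ZKSCAN7 has 24, against 3 in ZSCAN31, where the median over the first window of 39 members was 21 and over 15101 protein-coding genes 17. The window shown for ZSCAN31, the member with the highest share under RKO peaks, was poor in CG (the members ranged from 2 to 33). The RKO peak nearest to this window was 2.21 kb away. ZSCAN31 has 3 start windows, and the one closest to an RKO peak was 0.586 kb from it. GGGCGG on either strand was found in 22 of 39 members (56.4%) and in 56.3% of all protein-coding windows, CCAAT in 11 (28.2%) and 34.1%, and TATAAA in 1 (2.56%) and 9.30%. A match to these letters is a description of the window and not a measured site.

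Chromosome 6 carries the densest group of members. In 318.9 kb from 28124609 to 28443491 there are 9 of them with only NKAPL and PGBD1 as other protein-coding genes. In this cluster 5 peaks of LOVO covered 12.9 kb and 8 of RKO covered 29.3 kb. LOVO marked 2 of the 9 members (ZSCAN31 and ZSCAN12) and RKO 4 (also ZSCAN26 and ZKSCAN3). For all 10 members of chromosome 6, which have the same marked genes, 0.546 and 0.732 would be expected from length, given non-members on all chromosomes used. The remaining 5, ZSCAN16, ZKSCAN8, ZSCAN9, ZKSCAN4 and ZSCAN23, had none. A group of 2 LOVO and 3 RKO peaks lay between ZKSCAN8 and ZSCAN9 and touched no member.

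**Figure D5:**
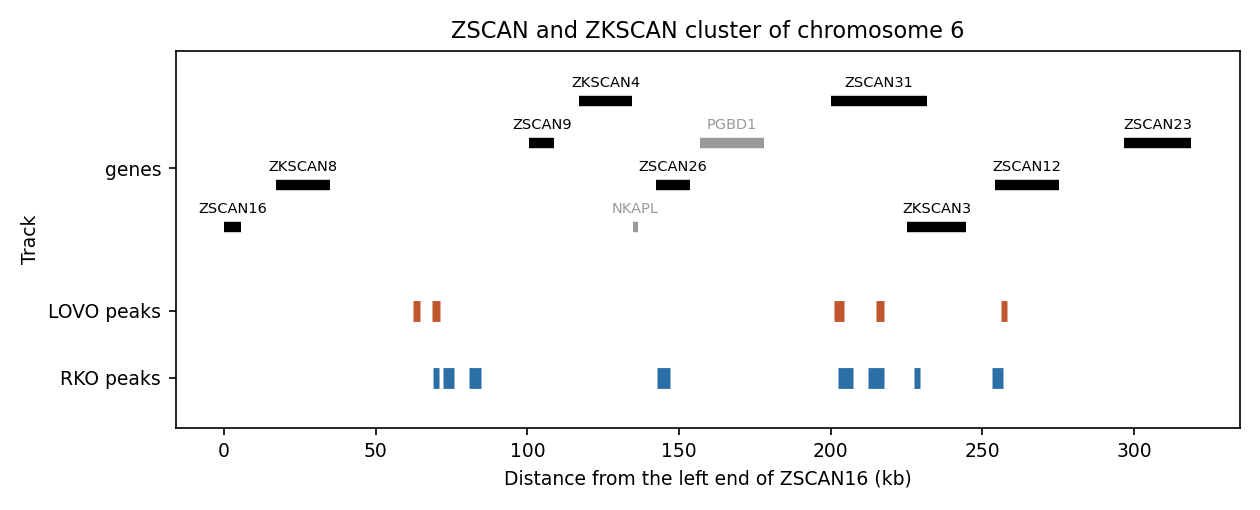
The ZSCAN and ZKSCAN cluster of chromosome 6 as distance in kb from the left end of ZSCAN16, with members in black, other protein-coding genes in grey, and peaks of LOVO (orange) and RKO (blue) to scale. The 5 LOVO and 8 RKO peaks fall in a few places, several of them common to both lines, and ZSCAN16, ZKSCAN8, ZSCAN9, ZKSCAN4 and ZSCAN23 are free of them.

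On chromosome 19, the main home of ZNF clusters, the number of marked members was near that expected from length. ZSCAN18 in LOVO and ZSCAN5A in RKO were the marked genes among 12 members, where 1.08 and 1.65 would be expected from length. The expected numbers for single chromosomes, and for members outside chromosome 19, were drawn from non-members on all the chromosomes used. LOVO peaks marked 107 of the 250 ZNF genes there (42.8%) and RKO peaks 69 (27.6%). Outside chromosome 19 the members had 18 of 36 marked in LOVO (3.06 expected) and 12 in RKO (4.42 expected), beside 107 (41.96%) and 72 (28.2%) of 255 ZNF genes. Chromosome 16 had 3 of its 5 members marked in LOVO (0.506 expected) and 2 in RKO (0.731 expected). The sizes of these groups are small and no difference between chromosomes was tested.

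The 25 members without a peak in either list were shorter, with a median body of 15.8 kb against 29.0 kb for the 23 marked ones. Among them, singled out for their known roles after the values were seen, are ZFP57, a KRAB protein that keeps methylation at imprinted loci, ZFP42 (REX1) and ZSCAN10, pluripotency genes, and ZSCAN4, a gene of early cleavage embryos and telomere maintenance. The longest were ZFP14 (44.7 kb), ZFP91 (42.5 kb), ZFP82 (35.5 kb), ZKSCAN1 (29.8 kb), ZSCAN4 (27.7 kb) and ZFP30 (25.3 kb). Distances to the nearest peak were not computed for other unmarked protein-coding genes, so those of the members have no background. A peak of either list lay within 10 kb of 5 of the 25, and the median distance was 28.4 kb. The closest was ZFP36L1 on chromosome 14, at 3.66 kb from a LOVO and 3.20 kb from an RKO peak, and the farthest ZKSCAN2 on chromosome 16, at 521.3 kb. At the other edge of the rule, the smallest overlaps of marked genes were 2.001 kb in LOVO (ZSCAN12) and 1.002 kb in RKO (ZFP90).

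Some members marked in 1 line only had a peak of the other line close by. For 5 of the 10 genes marked in LOVO only (ZFP69, ZFP69B, ZFP37, ZSCAN2 and ZSCAN18) an RKO peak was within 10 kb of the body. For 1 of the 4 genes marked in RKO only (ZKSCAN3) a LOVO peak was. The matching share over all protein-coding genes was not computed. With 10 kb added at both ends of each gene, 22 members were marked in LOVO and 22 in RKO, against 21.99% and 30.7% of all protein-coding genes. The higher LOVO count thus holds for peaks in the body, and not for the body with its flanks.

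Stretches of chromosomes dense in peaks touched 6 of the 48 members, and the matching share of all protein-coding genes was not computed. ZKSCAN5 and ZSCAN25 lay in such a stretch of LOVO. ZKSCAN5, ZSCAN25, ZKSCAN1, ZSCAN21, ZFP37 and ZFP41 lay in RKO stretches, and of these 6 only ZSCAN25 had an RKO peak. How many of all protein-coding genes in the RKO stretches had an RKO peak was not computed either. Outside all such stretches LOVO peaks marked 16 of 42 members and RKO peaks 12, which is 4.66 and 2.38 times the number expected from length. That expectation was drawn from non-members both inside and outside the stretches. The ratios are therefore not a comparison with genes outside the stretches alone. Copy number and input were not analysed here, and their part in these densities was not tested.

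Related genes gave a frame for these counts. Of 505 ZNF genes, LOVO peaks marked 214 (42.4%) and RKO peaks 141 (27.9%), close to the shares of the members. Against non-members outside the ZNF group, this was 4.24 and 1.82 times the number expected from length. On the same background the members had 5.51 and 2.22 times the expected number. The ZNF genes with most bases were ZNF670, ZNF124, ZNF704 and ZNF69, at 29.8, 30.001, 6.003 and 18.3 kb in LOVO and 21.2, 13.2, 35.8 and 23.1 kb in RKO. Outside the members, 24 genes carry a ZSCAN, ZKSCAN or SCAND alias under another symbol, and this group overlaps the ZNF genes. Of the 24, 6 were marked in LOVO (1.93 expected) and 3 in RKO (2.77 expected), all of them ZNF genes already counted above. They were led by ZNF483 (16.8 and 11.1 kb), ZNF287 (10.2 kb in LOVO), ZNF197 (6.29 kb in LOVO) and ZNF445 (5.93 kb in RKO). The marked share of these 24 genes was lower than that of the members in both lists, and the difference was not tested. ZNF704 and ZNF483 lay in stretches dense in RKO peaks.

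Genes listed for links to KRAB repression or to mRNA decay were marked about as often as their length would give. Of 22 KRAB corepressor and other heterochromatin genes, 4 were marked in LOVO (3.90 expected) and 5 in RKO (5.71 expected). Covered lengths in LOVO and RKO were 29.4 and 20.5 kb for ATF7IP, 4.52 and 40.6 kb for EHMT1, and 2.51 and 5.27 kb for SETDB1. ATF7IP2 had 6.77 kb in RKO. Of 18 genes linked to mRNA decay and its control, 3 were marked in LOVO (3.52 expected) and 4 in RKO (5.01 expected). Those with most bases were CNOT7 (4.25 and 7.05 kb), XRN1 (4.67 and 4.90 kb), CNOT2 (7.68 kb in RKO) and CNOT6L (2.77 kb in LOVO). Some of these genes lay in stretches dense in peaks: ATF7IP in one of LOVO, EHMT1 in one of RKO and CNOT2 in those of both lists.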

How the data were processed

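The authors deposited 1 list of H3K9me3 regions for each cell line, with chromosome, start and end in base pairs and no score. Per the submitters' processing notes, with no role or order, HOMER 4.11, Bowtie2 2.4.2, Trim Galore 0.6.6, FastQC 0.11.9 and Picard 2.26.0 were used, with hg38. The sources used here do not state the peak settings, the libraries behind each list or how reads matching several zinc finger copies were handled. Gene spans came from a RefSeq table of GRCh38.p14 with 1 span per gene and no exons, and strands and start windows from a second RefSeq table that holds 39 of the 48 members. Starts were read as 0-based. The 133 LOVO and 210 RKO peaks outside chromosomes 1 to 22 were left out.

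Overlap of at least 1 bp was computed with Python 3.11.15, numpy 2.4.6 and pandas 2.3.3, and the overlap code was checked on simulated intervals. Expected counts are the sums, over genes, of the marked share of non-members in the same of 20 length bins. For the ZNF group, ZNF genes were left out of these non-members as well. These non-members were not restricted by chromosome or dense stretch, even where the members were. Dense stretches are runs of at least 4 bins of 5 Mb whose peak counts are each 2 or more times the median of all bins. The members and gene lists were chosen with earlier results of these data known. Every member with a peak was named, with the 6 longest without one and the 4 genes with most bases of each other list. No test was run, because each line has 1 list. Cell identity was not checked, since the lists hold no expression.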

Additional observations from a re-analysis of the deposited data

How the results depend on the processing

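Of 106 values recomputed under 11 alternatives, 91 stayed within 1.5 times the value reported and 15 did not. Only the members with LOVO peaks alone minus those with RKO peaks alone could change sign. This difference did not, but came to 0 with 10 kb flanks. Alternatives in which every value stayed within 1.5 times were the peak midpoint, genes outside chromosome 19, the 200 genes nearest in length, a background without ZNF genes, peaks within 5 kb joined, and leaving out ZSCAN25, which was added after seeing the data. With at least 10% of the body covered, LOVO peaks marked 14 members (29.2%, against 2.47% of all protein-coding genes). RKO peaks marked 9 (18.8%, against 5.21% of all). In this setting 4 members were marked in both lines, 2 ZFP genes in RKO and 5 ZSCAN genes in LOVO. The ratio to the length expectation was 8.72 in LOVO and 3.30 in RKO. With 10 kb flanks, 22 members were marked in RKO and 16 in both lines, members with LOVO peaks alone minus members with RKO peaks alone came to 0, 11 ZFP genes were marked in RKO and 2 ZKSCAN genes in LOVO, and the LOVO ratio was 2.97. With wider peaks (at least the median width of each list, which removes almost no LOVO peak) 1 ZKSCAN gene was marked in RKO and the RKO ratio was 3.22, and with lists of equal size 1 ZKSCAN gene was marked in RKO. Outside dense segments 0 ZKSCAN genes were marked in LOVO. No paired analysis was possible because the lists carry no replicate number. Depth behind the peaks is unknown, so an absent peak is a peak not called and no measure of absent H3K9me3.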
